A study of Mus musculus with 12 samples.

Results

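Endothelial and angiogenic genes were examined in whole embryonic mouse testes that had lost Nr2f2 from part of their cells. The set held 37 of the 24470 genes counted and was defined by symbol. It comprised 12 endothelial markers, 6 endothelial transcription factors, 4 VEGF ligands, 5 VEGF receptors and co-receptors, 4 members of the angiopoietin-Tie system, 2 of the apelin system and 4 arterial or flow-related genes. All 37 passed the filter on low counts, which left 15572 genes for testing.

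RNA-seq had been carried out on testes at E14.5, in 6 control pools and 6 cKO pools of 3 testes each. Control embryos were Nr2f2 f/f without Cre, and cKO embryos carried the genotype Wt1 CreER x Nr2f2 f/f, so that floxed Nr2f2 was present in both groups. The dams received tamoxifen earlier in gestation, and Cre was thereby activated in cells that express Wt1, a factor of gonadal progenitors rather than of endothelium. Deletion was incomplete by the study's own account. The litters behind the pools were not given in the sources used here, so p-values measured only the spread between these pools.

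The testis recruits its blood vessels from the adjoining mesonephros soon after sex determination, and endothelial cells then line vessels that run between the forming testis cords. Vegfa, sensed by the receptor Kdr with the co-receptor Nrp1, drives endothelial migration and sprouting, whereas Flt1 binds the same ligand and signals weakly. Angpt1, made largely by perivascular and mesenchymal cells, activates the endothelial receptor Tek and stabilizes vessels. Angpt2, released by endothelial cells, competes with it in most settings, and Tie1 modulates the response. Nr2f2 is itself known as a regulator of venous and lymphatic endothelial identity, and as a factor of the mesenchyme around vessels.

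The promoters of the paired Tie receptor genes were read out because the transcript of only the former, Tek, was called lower in cKO testes. The windows span the 250 bases upstream of the annotated start on GRCm38.p6 and came from RefSeq. They are printed 5′ to 3′ on the gene's strand, and capitals mark matches to CAGGAA or CCGGAA on either strand. These letters are only some of the sequences with the GGAA core that ETS factors such as Erg and Fli1 read. Other GGAA cores are not marked. The Tek window lies at chr4:94739039-94739288 on the plus strand and the Tie1 window at chr4:118489850-118490099 on the minus strand.
Tek: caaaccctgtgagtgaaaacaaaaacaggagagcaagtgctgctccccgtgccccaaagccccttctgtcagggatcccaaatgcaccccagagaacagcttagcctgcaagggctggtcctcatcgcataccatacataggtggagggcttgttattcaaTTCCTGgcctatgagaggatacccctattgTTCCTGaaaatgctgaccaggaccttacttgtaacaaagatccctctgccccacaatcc
Tie1: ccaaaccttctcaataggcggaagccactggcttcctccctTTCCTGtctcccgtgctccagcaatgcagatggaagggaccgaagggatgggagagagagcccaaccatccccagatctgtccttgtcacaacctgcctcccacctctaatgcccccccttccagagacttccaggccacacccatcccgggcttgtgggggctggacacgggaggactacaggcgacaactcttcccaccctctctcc

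The Tek window held 2 matches to these letters and the Tie1 window 1. The Tie1 window also holds unmarked GGAA cores, so the 2 numbers do not compare ETS sites in full. The table held 27 windows for 20 of the 37 genes, and 12 of the 27 (44.4%), in 11 genes, held the ETS letters. Of all 32851 promoter windows of the same length, 35.1% held them. The 11 genes were Apln, Cd34, Egfl7, Emcn, Erg, Gja4, Kdr, Nrp2, Tek, Tie1 and Vegfa, so a match accompanied genes with either sign of fold change. Plvap, Pecam1, Cdh5 and Angpt1 had no entry.

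Total counts ranged from 7044531 to 59404778 per library, and the 37 genes took 0.107% to 0.168% of them. The lowest count of any of them in any library was 23, for Angpt2. Nr2f2 itself fell from 175 ± 8.87 CPM (SD, n = 6) in control to 75.9 ± 24.5 CPM (SD, n = 6) in cKO pools, and the groups did not overlap. CPM stands for a gene's count relative to its library's total, scaled by TMM factors. Control replicate 1 stood apart. Xist, which is transcribed from an inactive X chromosome and hence in XX cells, reached 891 CPM there, against 304 to 507 CPM in cKO replicates 3, 5 and 6 and 5.16 to 7.68 CPM in the 8 other libraries, which are those with little Xist. It also had the highest level of the 12 libraries for 18 of the 37 genes, and values without it are given below for the genes that moved most.

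Among all genes tested, edgeR's quasi-likelihood test called 8.13% at an adjusted p under 0.05, with 4.85% lower and 3.28% higher in cKO testes. Of the 37 genes, 2 were called, a share near that of all genes, with Plvap higher and Tek lower, and 8 had an unadjusted p under 0.05 (Plvap, Tek, Angpt1, Pgf, Gja5, Icam2, Nrp1 and Tal1), as did 3929 of all 15572. DESeq2 also called Angpt1 and Pgf, whereas limma-voom called Plvap and Tek alone. The log2 fold changes, given throughout for cKO relative to control, were positive for 18 genes and negative for 19. Their median was -0.01, next to 0.00 over all genes, and they extended from -0.59 for Angpt1 to 0.68 for Plvap. The 2 groups did not overlap for 1 of the 37 genes, Plvap, against 5.52% of all genes tested. In bulk RNA, fewer cells of a type and less RNA per cell cannot be told apart.

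**Figure D1:**
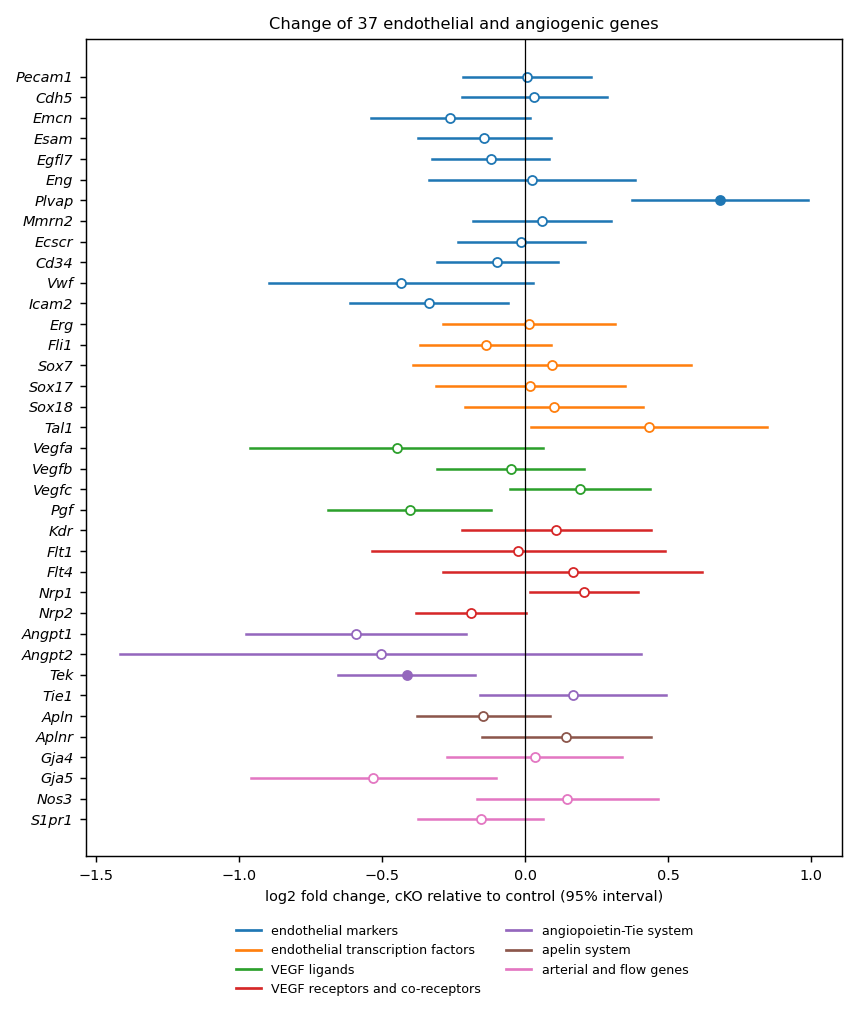
Log2 fold change of each of the 37 genes in cKO relative to control testes, on the x axis, with its 95% interval as a line; colours mark the functional class and filled points the genes called by edgeR. Only Plvap at 0.68 and Tek at -0.41 are filled, and most other intervals include 0.

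Of the 12 endothelial markers 1 was called, and 5 had positive and 7 negative log2 fold changes. Pecam1, an adhesion molecule of endothelial junctions, ranged from 66.8 to 98.4 CPM (median 79.7) in control and from 74.9 to 91.6 CPM (median 80.7) in cKO pools. The cKO pools all lay inside the control range, and the log2 fold change was 0.01 (SE 0.10, 95% interval -0.22 to 0.23, adjusted p = 0.979). Cdh5, the cadherin of endothelial adherens junctions, ranged from 98.6 to 153 CPM (median 118) in control and from 103 to 155 CPM (median 129) in cKO pools. Its groups overlapped almost wholly, and its log2 fold change was 0.03 (SE 0.12, 95% interval -0.22 to 0.29, adjusted p = 0.886). In the 8 libraries with little Xist, Cdh5 had 0.21 (95% interval -0.06 to 0.48, adjusted p = 0.268). The summed level of the 12 markers was 524 ± 66.0 CPM (SD, n = 6) in control and 511 ± 51.1 CPM (SD, n = 6) in cKO pools.

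Plvap was the exception among the markers. It encodes the protein of the diaphragms that span fenestrae and caveolae of permeable endothelium, and the gene lies at chr8:71497753-71511769 on mm10 (Entrez Gene 84094). The control pools had 12.0 to 19.6 CPM with a median of 18.0 CPM, and the cKO pools 20.1 to 31.4 CPM with a median of 27.3 CPM. Every cKO pool was above every control pool. The mean rose from 16.5 ± 3.41 to 26.4 ± 4.07 CPM (SD, n = 6 each), a log2 fold change of 0.68 (SE 0.14, 95% interval 0.37 to 0.99, adjusted p = 0.00938). Control replicate 1, at 19.0 CPM, was within the control range for this gene. Plvap was called whichever library was left out, with log2 fold changes from 0.61 to 0.75.

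The other 9 endothelial markers were not called. Esam, Egfl7, Eng, Mmrn2, Ecscr and Cd34 had log2 fold changes between -0.14 for Esam and 0.06 for Mmrn2, and in the 8 libraries with little Xist Eng had 0.32 (adjusted p = 0.126) and Mmrn2 0.27 (adjusted p = 0.142). Emcn, a sialomucin of venous and capillary endothelium, had -0.26 (SE 0.13, adjusted p = 0.223), with 4 control pools at 22.4 to 25.9 CPM like the cKO pools and control replicates 5 and 6 at 41.4 and 33.8 CPM. Without control replicate 5 its log2 fold change was -0.13. Icam2, an adhesion molecule for leukocytes, ranged from 7.40 to 12.5 CPM in control and from 6.68 to 8.53 CPM in cKO pools, with 3 cKO pools under every control pool. Its log2 fold change was -0.34 (SE 0.13, adjusted p = 0.124). Vwf, the clotting factor stored in endothelial Weibel-Palade bodies and in platelets, ranged from 26.6 to 62.1 CPM in control and from 19.9 to 48.5 CPM in cKO pools. Its log2 fold change was -0.43 (SE 0.22, adjusted p = 0.222), and the lowest values of the cKO group were in replicates 5 and 6. These 2 libraries had high Xist, and without the 4 libraries over 100 CPM of Xist the value for Vwf was -0.07 (SE 0.20, adjusted p = 0.847).

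**Figure D2:**
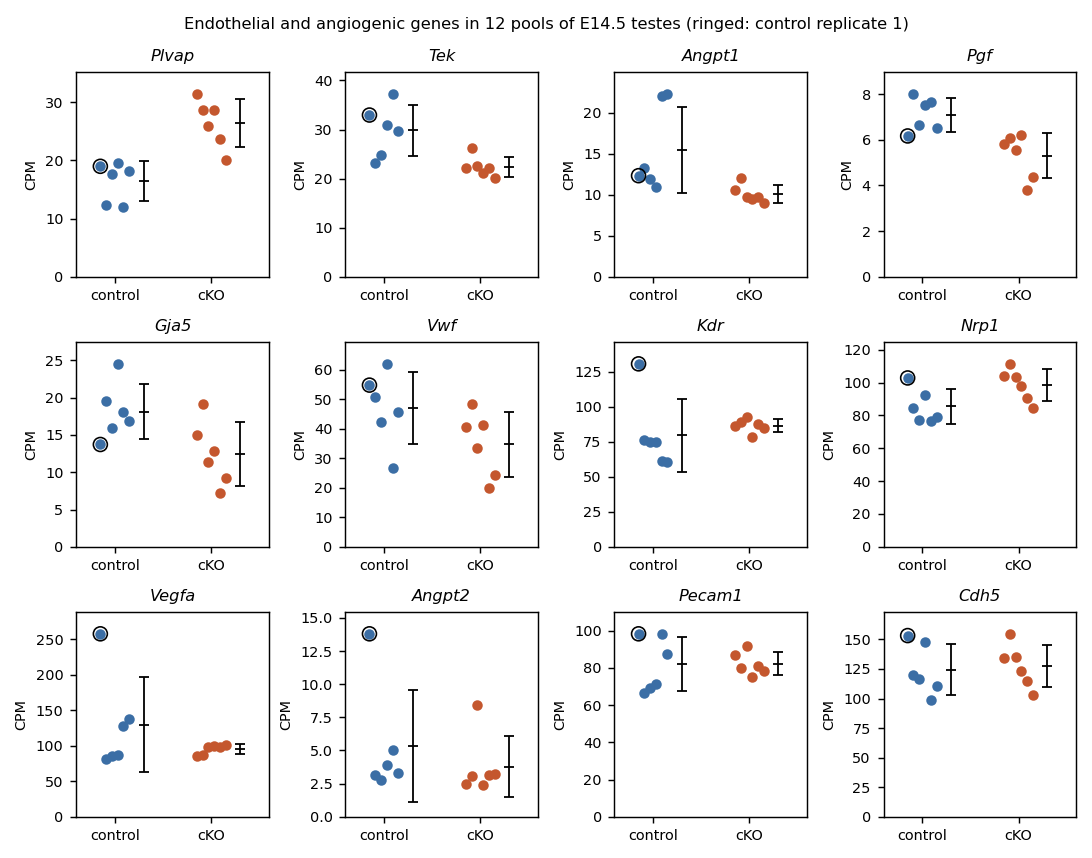
CPM of 12 of the genes on the y axis in each of the 6 control and 6 cKO pools (points), with the group mean and SD as bars; the ringed point is control replicate 1. Plvap separates the groups, Tek and Angpt1 overlap in 1 cKO pool, and control replicate 1 lies far above the other control pools for Vegfa, Kdr and Angpt2.

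None of the 6 endothelial transcription factors was called by edgeR, and only Tal1 had an unadjusted p under 0.05. Erg and Fli1, ETS factors that maintain endothelial identity, had log2 fold changes of 0.01 and -0.14. The SoxF factors Sox7, Sox17 and Sox18, which act in arterial and lymphatic specification, had 0.09, 0.02 and 0.10. Their control ranges were wide, from 6.58 to 21.9 CPM for Sox7, where the cKO pools had 8.68 to 16.6 CPM. In the 8 libraries with little Xist, Sox7 had 0.42, Sox17 0.20 and Sox18 0.26. Erg had 0.26 there and Fli1 -0.05, and none of them was called. Tal1, a factor of blood and endothelial progenitors and of erythroid and megakaryocytic cells, ranged from 3.76 to 5.87 CPM in control and from 4.22 to 10.4 CPM in cKO pools. In 4 cKO pools Tal1 was above every control pool, and the log2 fold change was 0.43 (SE 0.19, adjusted p = 0.178). Its highest level belonged to cKO replicate 4, and without that library the log2 fold change was 0.24. Tal1 was called higher at 0.77 (SE 0.17, adjusted p = 0.0234) once the 4 libraries with Xist over 100 CPM were left out, a set that still held cKO replicate 4. Among 10 erythroid markers, 1 was called lower (Hbb-bs) and none higher, and none of 4 megakaryocyte markers tested was called. The part of these cells in the Tal1 values was not tested.

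Among the 4 VEGF ligands of the set, none was called by edgeR, and DESeq2 called Pgf. Vegfa (chr17:46016993-46032377) ranged from 81.3 to 257 CPM (median 108) in control and from 84.8 to 101 CPM (median 98.5) in cKO pools. The highest control value belonged to replicate 1, and the next was 138 CPM. The control range enclosed the cKO range, and the log2 fold change of -0.45 (SE 0.24, 95% interval -0.96 to 0.06, adjusted p = 0.253) shrank to -0.12 (SE 0.14, adjusted p = 0.525) without control replicate 1. Vegfc, the ligand of lymphatic growth, ranged from 3.75 to 4.92 CPM (median 4.49) in control and from 4.30 to 5.75 CPM (median 5.09) in cKO pools. It was above every control pool in 4 cKO pools, with a log2 fold change of 0.19 (SE 0.11, 95% interval -0.05 to 0.44, adjusted p = 0.309). Vegfb, a ligand of Flt1 with little angiogenic activity in most tissues, had -0.05 (SE 0.12).

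Pgf, placental growth factor, likewise binds Flt1. It was measured at 6.17 to 8.01 CPM (median 7.09) in control and at 3.80 to 6.22 CPM (median 5.69) in cKO pools. In 5 cKO pools it was under every control pool, and the lowest control value was that of replicate 1. The log2 fold change was -0.40 (SE 0.13, 95% interval -0.69 to -0.12), with an adjusted p of 0.0768. Without control replicate 1 the groups no longer overlapped and Pgf was called lower at -0.44 (SE 0.13, adjusted p = 0.0341). DESeq2 on all 12 libraries also called it lower (adjusted p = 0.0360), whereas in the 8 libraries with little Xist it was -0.27 (adjusted p = 0.157).

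Of the VEGF receptors and co-receptors, none was called in the full set of libraries. Kdr (chr5:75933265-75978428) ranged from 60.6 to 130 CPM (median 74.7) in control and from 78.3 to 92.4 CPM (median 86.9) in cKO pools. Control replicate 1 had 130 CPM, and the 5 other control pools, at 60.6 to 76.2 CPM, all lay under the lowest cKO pool. The log2 fold change was 0.11 (SE 0.15, 95% interval -0.22 to 0.44, adjusted p = 0.682). Without control replicate 1 it was 0.31 (SE 0.08, 95% interval 0.14 to 0.47, adjusted p = 0.0153), and Kdr was then called higher, whereas it was 0.05 without control replicate 5 or 6. In the 8 libraries with little Xist the value was similar, 0.28 (SE 0.10), but not called (adjusted p = 0.102).

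Nrp1, the co-receptor of Kdr, ranged from 76.5 to 103 CPM (median 82.0) in control and from 84.8 to 111 CPM (median 101) in cKO pools. It was above every control pool in 3 cKO pools, and the highest control pool was again replicate 1. The log2 fold change was 0.21 (SE 0.09, 95% interval 0.02 to 0.39, adjusted p = 0.163). It was called higher at 0.26 (SE 0.08, adjusted p = 0.0346) without control replicate 1 and at 0.35 (SE 0.09, adjusted p = 0.0330) in the 8 libraries with little Xist. Nrp2, which pairs with Flt4 in lymphatic and venous endothelium, ranged from 44.4 to 59.8 CPM (median 48.4) in control and from 36.6 to 51.8 CPM (median 43.0) in cKO pools. It was under every control pool in 5 cKO pools, and its log2 fold change of -0.19 (SE 0.09, 95% interval -0.38 to 0.00) had an adjusted p of 0.206. Nrp2 had -0.12 without control replicate 1, its highest pool, and -0.03 (adjusted p = 0.811) in the 8 libraries with little Xist. The neuropilins are not confined to endothelium and are found on neurons and mesenchymal cells as well.

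Flt1 and Flt4 varied more between control pools than between the groups. Flt1 ranged from 13.1 to 41.7 CPM (median 19.0) in control and from 15.3 to 26.1 CPM (median 23.8) in cKO pools, with a log2 fold change of -0.02 (SE 0.24, 95% interval -0.54 to 0.49, adjusted p = 0.964). Its direction turned without control replicate 1, to 0.27 (SE 0.17, adjusted p = 0.256). Flt4, the receptor of Vegfc, ranged from 8.57 to 24.0 CPM (median 14.7) in control and from 12.7 to 20.2 CPM (median 18.1) in cKO pools. Its log2 fold change was 0.17 (SE 0.21, 95% interval -0.29 to 0.62, adjusted p = 0.646), with 0.35 (SE 0.18, adjusted p = 0.171) without control replicate 1 and 0.06 without control replicate 5. In the 8 libraries with little Xist it was 0.52 (SE 0.18, adjusted p = 0.103). The log2 ratio of Flt1 to Kdr was taken within each library. It was -1.87 ± 0.241 (SD, n = 6) in control and -1.99 ± 0.341 (SD, n = 6) in cKO pools, a difference of -0.12 (two-sided exact permutation test over all assignments of the pools, p = 0.487, adjusted p over 2 ratios = 0.662). It was -0.02 without cKO replicate 5 and turned to 0.17 in the 8 libraries with little Xist.

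The angiopoietin-Tie system held the called decrease. Tek, the angiopoietin receptor also known as Tie2, lies at chr4:94739289-94874976 (Entrez Gene 21687), directly downstream of the promoter printed above. It ranged from 23.3 to 37.3 CPM (median 30.4) in control and from 20.0 to 26.2 CPM (median 22.2) in cKO pools. In 5 cKO pools it was under every control pool, and cKO replicate 2 at 26.2 CPM exceeded control replicates 2 and 3. The mean fell from 29.8 ± 5.21 to 22.4 ± 2.07 CPM (SD, n = 6 each), a log2 fold change of -0.41 (SE 0.11, 95% interval -0.65 to -0.17, adjusted p = 0.0352). The highest control pool was replicate 5, with 37.3 CPM. The direction was the same whichever library was left out, with values from -0.48 to -0.34, but the call was not: it was lost without control replicate 4, 5 or 6 or cKO replicate 1, 3, 4, 5 or 6 (adjusted p up to 0.0787). In the 8 libraries with little Xist, Tek had -0.33 (SE 0.15, adjusted p = 0.182). Tie1, the orphan partner of Tek, was not called and ranged from 23.9 to 52.8 CPM (median 34.5) in control and from 34.1 to 48.9 CPM (median 41.8) in cKO pools. Its log2 fold change was 0.17 (SE 0.15, 95% interval -0.16 to 0.49, adjusted p = 0.505). Tie1 had 0.30 (adjusted p = 0.0940) without control replicate 1, its highest pool, 0.08 without control replicate 5, its lowest, and 0.36 (adjusted p = 0.145) in the 8 libraries with little Xist.

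Angpt1 (chr15:42424667-42676977) had the largest negative fold change of the 37 genes. It ranged from 11.0 to 22.3 CPM (median 12.8) in control and from 9.01 to 12.0 CPM (median 9.75) in cKO pools. Control replicates 5 and 6 had 22.0 and 22.3 CPM, while the 4 other control pools had 11.0 to 13.3 CPM. In 5 cKO pools Angpt1 was under every control pool. The log2 fold change was -0.59 (SE 0.18, 95% interval -0.98 to -0.21), with an adjusted p of 0.0587 by edgeR and of 0.0172 by DESeq2. It was called lower without control replicate 1 (adjusted p = 0.0280) and without control replicate 4, where its value was -0.67. Without control replicate 5 it was -0.45. In the 8 libraries with little Xist it was -0.54 (SE 0.24, adjusted p = 0.166), and limma-voom on all libraries gave -0.47 (adjusted p = 0.0884), so neither fit called it. Of the contractile and pericyte markers, all 6 smooth muscle genes were called lower (Acta2, Myh11, Tagln, Cnn1, Mylk and Actg2). The study places Acta2, Myh11 and Mylk in a contractile cluster, with ACTA2 protein in the tunica albuginea and around the seminiferous tubules. Of 9 pericyte markers, 2 were called lower (Kcnj8 and Lgi1). Negative log2 fold changes were found for 8 of the 9, Mcam being the exception at 0.03. The summed smooth muscle level was 566 to 696 CPM in control and 335 to 517 CPM in cKO pools, and the summed pericyte level was 413 to 715 CPM and 360 to 566 CPM. Their part in the Angpt1 values was not tested.

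Angpt2 was the least certain of the set. It ranged from 2.79 to 13.8 CPM (median 3.62) in control and from 2.43 to 8.41 CPM (median 3.08) in cKO pools. The high values were those of control replicate 1 and cKO replicate 3, both with Xist over 100 CPM, and the 10 other libraries had 2.43 to 5.05 CPM. The log2 fold change was -0.50 (SE 0.42, 95% interval -1.41 to 0.40, adjusted p = 0.474). It was 0.09 (SE 0.32, adjusted p = 0.863) without control replicate 1 and -0.93 without cKO replicate 3. The log2 ratio of Angpt2 to Angpt1 was -1.61 ± 0.946 (SD, n = 6) in control and -1.42 ± 0.635 (SD, n = 6) in cKO pools, a difference of 0.19 (two-sided exact permutation test over all assignments of the pools, p = 0.662, adjusted p over 2 ratios = 0.662). It was 0.54 without control replicate 1 and turned to -0.06 without cKO replicate 3.

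Apelin, a peptide ligand that endothelial cells of sprouting vessels release, and its receptor Aplnr had fold changes of opposite sign. Apln ranged from 8.34 to 11.1 CPM (median 9.78) in control and from 7.47 to 10.4 CPM (median 8.51) in cKO pools. Its log2 fold change was -0.15 (SE 0.11, 95% interval -0.38 to 0.09, adjusted p = 0.413). Aplnr ranged from 37.9 to 74.7 CPM (median 57.5) in control and from 52.8 to 70.9 CPM (median 65.6) in cKO pools, with a log2 fold change of 0.14 (SE 0.14, 95% interval -0.15 to 0.44, adjusted p = 0.529) that was 0.06 without control replicate 5. Neither was called.

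The arterial genes were not called either. Gja5, the gap junction protein connexin 40 of arterial endothelium, lies at chr3:97032402-97053634. It ranged from 13.7 to 24.5 CPM (median 17.5) in control and from 7.19 to 19.2 CPM (median 12.1) in cKO pools, and 4 cKO pools were under every control pool. The log2 fold change was -0.53 (SE 0.20, 95% interval -0.96 to -0.10, adjusted p = 0.119). The lowest values, 7.19 and 9.16 CPM, were in cKO replicates 5 and 6, and in the 8 libraries with little Xist the log2 fold change was -0.29 (SE 0.16, adjusted p = 0.255). Without control replicate 1, the lowest control pool, Gja5 was called lower at -0.60 (adjusted p = 0.0491), as it was at -0.68 without cKO replicate 2, its highest cKO pool. Gja4, connexin 37, ranged from 6.96 to 12.0 CPM (median 8.38) in control and from 7.33 to 11.1 CPM (median 9.30) in cKO pools, with 0.03 (SE 0.14, 95% interval -0.27 to 0.34, adjusted p = 0.904). Nos3, the endothelial nitric oxide synthase, had a log2 fold change of 0.15 and S1pr1, a sphingosine 1-phosphate receptor that restrains sprouting, had -0.16.

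Control replicate 1 had a distinct pattern of its own across the set. It was highest of all 12 libraries for Pecam1, Esam, Egfl7, Eng, Sox7, Sox17, Vegfa, Vegfb, Kdr, Flt1, Flt4, Nrp2, Angpt2, Tie1, Aplnr, Gja4, Nos3 and S1pr1. The 37 genes summed to 1670 CPM in it, against 1088 to 1250 CPM in the 5 other control pools and 1064 to 1314 CPM in cKO pools. Its summed interstitial markers (970 CPM) and fetal Leydig markers (1561 CPM) were below those of the other control pools (1173 to 1275 and 2140 to 2910 CPM). Its mesonephric epithelial markers summed to 86.2 CPM, above the 44.5 to 70.0 CPM of all other libraries, and its pericyte markers to 715 CPM, above their 360 to 615 CPM. Its germ cell markers summed to 924.4 CPM, below the 1187 to 1769 CPM of all other libraries. The part of these differences in the endothelial values was not tested.

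Control replicate 5 ran the other way for many of the same genes. It was lowest of all libraries for 14 of them, among which were Cdh5, Eng, Flt1, Flt4, Tie1, Aplnr, Nos3 and the 3 SoxF genes. Yet it was highest for Tek, Emcn, Cd34, Icam2 and Fli1, so endothelial genes did not move as a single block between pools. The median SD of the log2 levels was 0.277 in control and 0.158 in cKO pools, and it was larger in control for 28 of the 37 genes. Without control replicate 1 the control median was 0.239, and the control SD was larger for 24 genes.

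**Figure D3:**
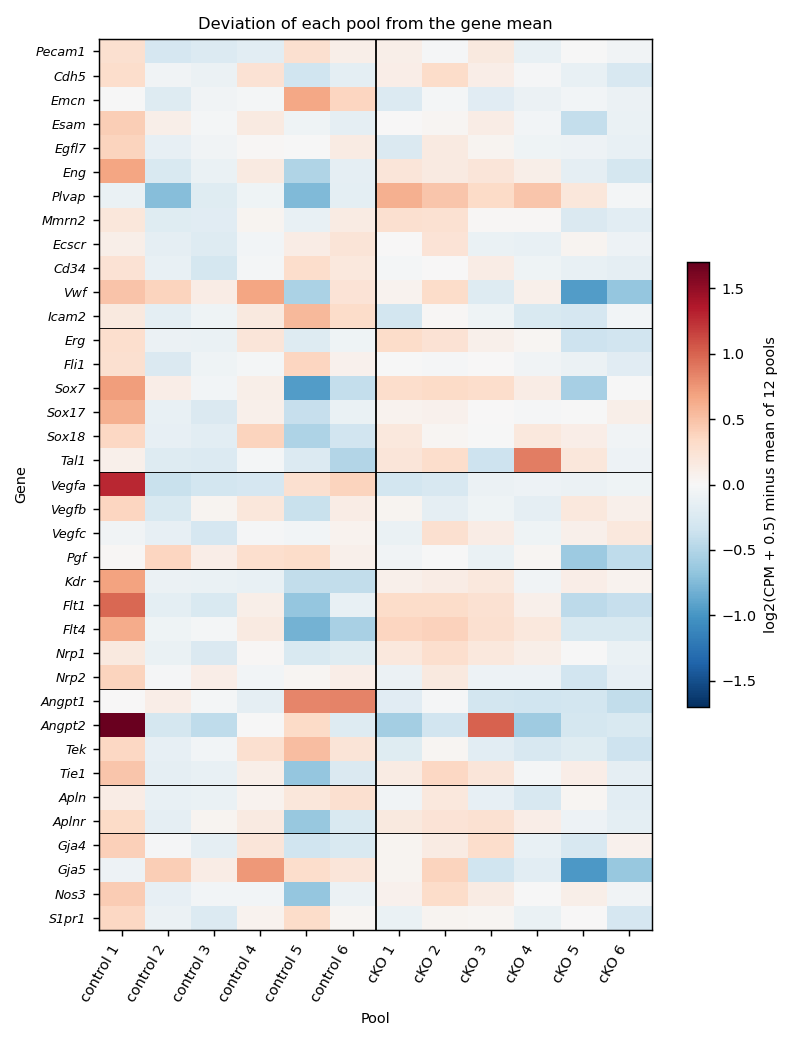
Deviation of each pool from the gene's mean over 12 pools, in log2(CPM + 0.5), with genes in rows by functional class and pools in columns. Control replicate 1 is above the mean for most genes, control replicate 5 combines high Tek, Emcn and Angpt1 with low Flt4 and Sox7, and the cKO pools are paler.

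Leaving out control replicate 1 altered more calls than any other omission. The share of all genes called then rose to 19.9%, and 7 of the 37 genes were called: Plvap, Kdr and Nrp1 higher and Tek, Angpt1, Pgf and Gja5 lower. Under this omission 22 of the 37 log2 fold changes were positive, the median was 0.08, and the sign differed from that in all libraries for Ecscr, Vegfb, Flt1 and Angpt2. Among genes not called, Eng had 0.21, Sox7 0.30, Sox17 0.20, Sox18 0.19, Aplnr 0.23 and Nos3 0.28, each further above 0 than in all libraries, and Esam had -0.06, Egfl7 -0.04 and S1pr1 -0.09, each nearer 0. With the 8 libraries that had Xist under 100 CPM, 5 control and 3 cKO, 7.08% of all genes were called. Among the 37 these were Plvap at 0.90 (adjusted p = 0.00664), Tal1 and Nrp1, all higher. In those 8 libraries 20 log2 fold changes were positive and the sign differed for Ecscr and Flt1.

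**Figure D4:**
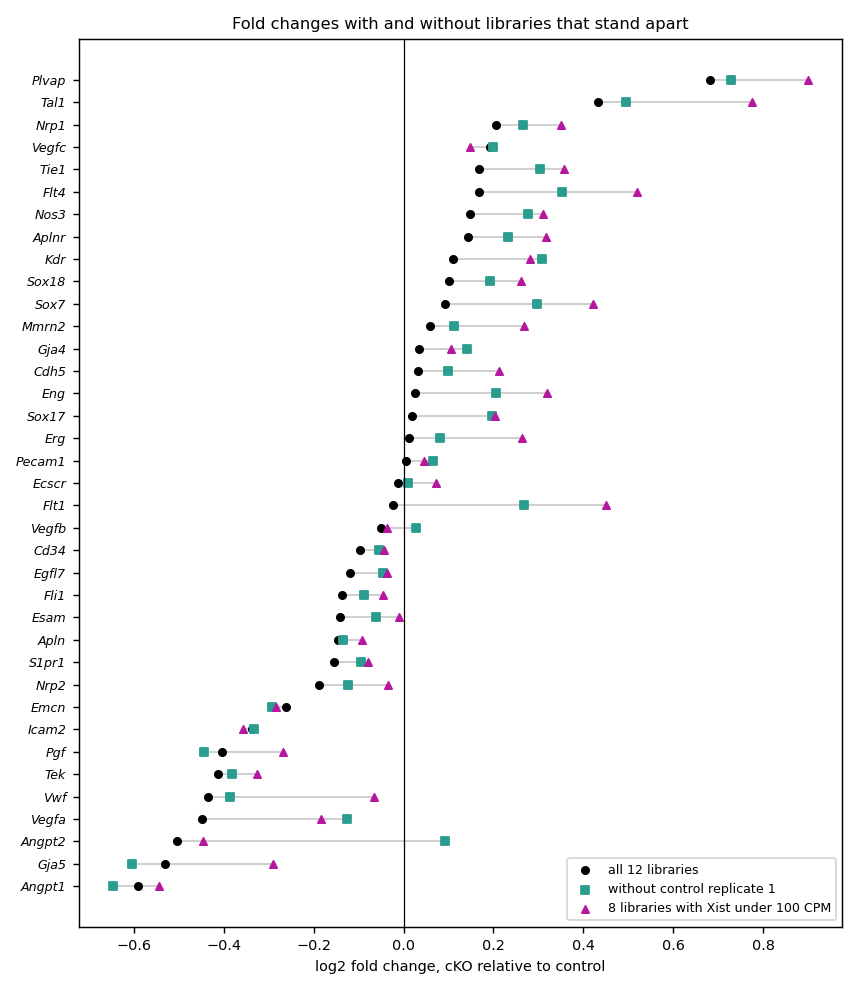
Log2 fold change of each gene, on the x axis, fitted on all 12 libraries (circles), without control replicate 1 (squares) and on the 8 libraries with Xist under 100 CPM (triangles). Plvap stays at 0.68 or above and Angpt1 at -0.54 or below, whereas Angpt2 and Flt1 shift most.

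Levels between genes were compared per kilobase of the longest transcript in GENCODE M21, which was found for all 37. In control testes the level was highest for Vegfa at 37.5 ± 19.5 CPM per kb (SD, n = 6), Cdh5 at 31.2 ± 5.39, Pecam1 at 23.8 ± 4.24, Nrp1 at 23.5 ± 2.86 and Cd34 at 23.1 ± 3.69 CPM per kb. The SD ranges of neighbours in this order overlapped. Lowest were Vegfc at 1.80 ± 0.163, Angpt2 at 1.5 ± 1.19 and Tal1 at 1.14 ± 0.173 CPM per kb. Kdr, at 13.4 CPM per kb, was above Flt1, at 3.21 CPM per kb, in control testes. In cKO testes Plvap moved from rank 16 to rank 11 of 37, at 13.3 ± 2.05 CPM per kb, and Angpt1 from rank 26 to rank 34, at 2.37 ± 0.252 CPM per kb. Longest transcripts stand in for the isoforms in use, so small differences in this order carry no weight.

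**Figure D5:**
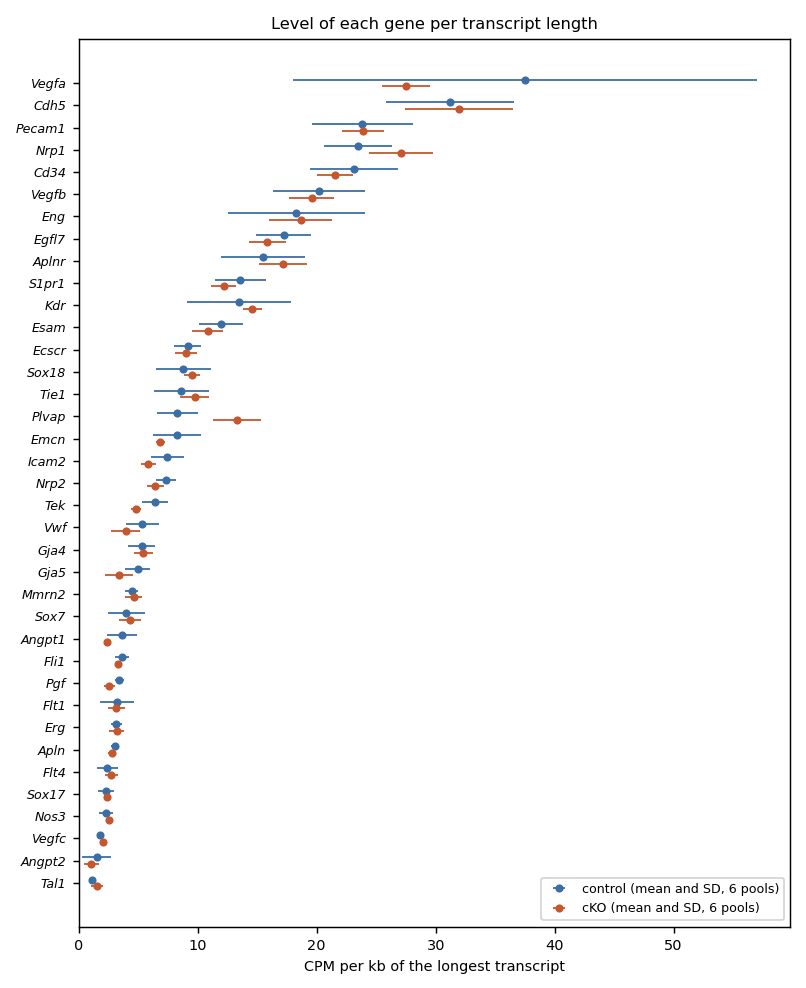
Level of each gene in CPM per kb of its longest transcript, on the x axis, as mean and SD over 6 control and 6 cKO pools. Vegfa has the highest control mean, 37.5, with the widest SD, and Plvap is the gene whose group means stand clearest apart.

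Other genes of endothelial biology, taken from lists outside the 37, were also mixed in direction. Of 30 further pan-endothelial genes tested, 3 were called lower and 1 higher, and the median was 0.07 on the log2 scale. The lower ones were Calcrl and Ramp2, which together form an adrenomedullin receptor, at -0.67 and -0.34, and Slc9a3r2 at -0.44, and the higher one was Palmd at 0.77. Of 14 arterial and Notch genes, Hey2 (-0.67) and Cxcl12 (-0.59) were called lower and Unc5b (0.73) and Sema3g (0.46) higher. Of 3 venous genes, Ackr3 was called lower at -1.22 and Nt5e higher at 0.49, while Ephb4, the venous ephrin receptor, had 0.02. Whole-testis RNA does not show which cells these transcripts came from, and the part of cells other than endothelium was not tested. Cxcl12, for one, had a mean of 616 CPM in control pools, against 125 CPM for Cdh5. Of 6 tip cell genes, none was called by edgeR, and 1 had an unadjusted p under 0.05.

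Among 18 other angiogenic ligands and modulators tested, 5 were called lower and none higher. They were Angpt4, another angiopoietin (-0.92, at 0.63 CPM in control), the growth factor Fgf2 (-0.82), the angiogenesis inhibitor Thbs1 (-0.67), the semaphorin Sema3c (-0.51) and the vasohibin Vash2 (-0.31). The median of this list was -0.05. Of 4 lymphatic genes tested, Prox1, the master regulator of lymphatic fate, was called higher at 1.47, from 0.854 ± 0.270 to 2.45 ± 0.556 CPM (SD, n = 6 each). Lyve1 had 0.07, Pdpn -0.21 and Reln 0.21, none of them called, and Ccl21a was at 0 counts in every library. Prox1 is also found in epithelial and neural cells, and 2 of 5 mesonephric epithelial markers tested, Lhx1 and Pax8, were called higher. Their part in the Prox1 value was not tested.

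Markers of other cells that could contribute to these transcripts moved as follows. Of 10 macrophage markers, 3 were called higher (Csf1r, Cx3cr1 and C1qb), and their summed level was 72.2 to 97.4 CPM in control and 93.7 to 109 CPM in cKO pools. Macrophages also carry Nrp1, and their part in its values was not tested. Of 5 fetal Leydig markers 4 were called lower, and of 5 interstitial markers 2 (Tcf21 and Wnt5a). None of 3 Sertoli and 4 germ cell markers was called by edgeR, and none had an unadjusted p under 0.05. Vegfa is made by several of these cells, and their part in its values was not tested.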

How the data were processed

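RNA was measured in 6 control and 6 cKO pools, grouped by the genotype in their labels. The authors trimmed reads with Trim Galore 0.6.7, aligned them to mm10 with STAR 2.5, counted pairs by strand with featureCounts of Subread 1.5.0-p1 on RefSeq Curated models, and deposited raw counts. Overlapping genes on the same strand were microRNAs only.

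Counts were scaled by TMM and tested in edgeR 4.0.16 (R 4.3.3) with glmQLFit and glmQLFTest. Genes were kept by filterByExpr (minimum count 10, minimum total 15), and p-values were adjusted by Benjamini-Hochberg over all genes tested, at 0.05. The SE was the log2 fold change over the square root of F. CPM used TMM-scaled totals, and ratios a pseudocount of 0.5 CPM. Scripts were tested on simulated data. Alternatives were RLE and upper quartile scaling, other filters, DESeq2 1.42.0, limma-voom (limma 3.58.1), a replicate block, and leaving out libraries.

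The 37 genes, the lists and the Xist threshold of 100 CPM were chosen with earlier results of these data known. Values in full were given for called genes and for the main ligands, receptors and junction genes. Pgf, Icam2, Vwf, Emcn and Tal1 were added once their values were known.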

Additional observations from a re-analysis of the deposited data

Results flagged for a closer look

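Among 78 sets of 6 pools examined (each gene and each ratio in each group), 7 had 1 pool far from the rest by Dixon's test at the 95% level, which chance alone does in about 1 set of 20. In the control group 5 of these were replicate 1: Vegfa at 257 CPM with the next pool at 138 CPM, Kdr at 130 CPM with the next at 76.2 CPM, Flt1 at 41.7 CPM with the next at 22.5 CPM, Nrp2 at 59.8 CPM with the next at 49.9 CPM, and Angpt2 at 13.8 CPM with the next at 5.05 CPM. The remaining 2 concerned cKO replicate 3, where Angpt2 was 8.41 CPM with the next pool at 3.23 CPM, and the log2 ratio of Angpt2 to Angpt1 was -0.199 with the next at -1.35. Both libraries had over 100 CPM of Xist, as did cKO replicates 5 and 6, where Angpt2 was 3.12 and 3.23 CPM.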

How the results depend on the processing

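Plvap was called higher under all alternatives run. RLE and upper quartile scaling, both other filters and limma-voom each called Plvap and Tek. DESeq2 called 4 of the 37 genes, 3 lower (Tek, Angpt1 and Pgf), with 11.6% of all genes called. The 8 libraries with Xist under 100 CPM gave 3 called, 0 lower and 3 higher, with 7.08% of all genes called. Leaving out each library in turn gave 1 to 7 called (5.24% to 19.9% of all genes), 0 to 4 lower and 1 to 3 higher, with medians of -0.06 to 0.08, and the upper end of each range came without control replicate 1. Same-numbered pools correlated between -0.329 and 0.267. No control pool correlated best with the cKO pool of its own number, and among cKO pools only replicate 4 did so. The numbers were therefore not taken as pairs. With the replicate block, 5.98% of all genes were called and 2 of the 37, Plvap at 0.69 and Vwf at -0.45 (adjusted p = 0.0314). Tek had -0.40 there (adjusted p = 0.0849). The cause of these changes was not tested.

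Signs turned for some genes, most of them near 0 and Angpt2 at -0.50. Erg was -0.023 and Flt1 0.0082 by limma-voom, Flt1 was 0.045 with the replicate block, and in the 8 libraries Ecscr was 0.071, Flt1 0.45 and the log2 ratio of Flt1 to Kdr 0.17. Leaving out each library in turn, values ran from -0.047 to 0.071 for Pecam1, -0.029 to 0.099 for Cdh5, -0.056 to 0.21 for Eng, -0.065 to 0.028 for Ecscr, -0.055 to 0.083 for Erg, -0.034 to 0.30 for Sox7, -0.046 to 0.20 for Sox17, -0.12 to 0.028 for Vegfb, -0.13 to 0.27 for Flt1, -0.93 to 0.092 for Angpt2, -0.028 to 0.14 for Gja4 and -0.059 to 0.54 for the log2 ratio of Angpt2 to Angpt1. Depth was least for Angpt2, which had 23 counts in its lowest library, so counting error adds to its spread.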
